A study of Mus musculus with 19 samples.

Results

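The cytosolic ribosomal protein genes were followed in 2 mouse models of fibrolamellar carcinoma. In this liver cancer the chaperone gene DNAJB1 is joined to PRKACA, which codes for the catalytic subunit of protein kinase A. Members were taken by symbol, as Rpl and Rps genes with Rplp0, Rplp1, Rplp2 and Rpsa, without kinases and without rows named as pseudogenes. The embryo liver table held 81 of them among 13549 genes. In the tumours 87 symbols matched among 17606 genes, and the 83 that averaged 1 CPM (reads per 1000000) or more were kept. In all 77 members were in both sets.

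Embryo livers were taken at embryonic day 18.5 from 5 controls, for which the labels give no further genotype, and from 4 embryos labelled DNAJ1B-PKA_Overexpression, here called fusion. The fusion embryos carried a DNAJB1-PKA-GFP cDNA in Rosa26 behind a stop that Cre removes, with Cre under the albumin promoter (Alb-Cre), so the allele is recombined in cells that use that promoter. The tumours were FL8 cells, a single mouse line, grown in gelatin capsules under the skin of immunodeficient NSG mice. Once the average size was 75 mm3, 5 mice received the CDK4/6 inhibitor palbociclib by gavage (75 mg/kg) for 3 days followed by 4 days off, and 5 received the methocel vehicle at 0.5%. Host and tumour RNA are both mouse and cannot be told apart, and in bulk tissue fewer cells of a type and less RNA per cell cannot be told apart either.

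Each ribosome has a small subunit, which decodes the mRNA and is built with the Rps proteins, and a large subunit, which forms the peptide bond and is built with the Rpl proteins and the acidic stalk proteins Rplp0, Rplp1 and Rplp2. Every subunit needs its proteins in fixed numbers, and ribosomal protein mRNAs are among the most abundant in liver. Most of them are known to begin with a C followed by a run of pyrimidines, the 5′ terminal oligopyrimidine (TOP) tract, through which mTOR signalling controls their translation.

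The windows around the annotated start show this tract in some members and not in others. RefSeq start windows of build GRCm38.p6 were found for 62 of the 87 members, and the first listed start was used for the 10 genes with several. A C followed by at least 4 further pyrimidines stood at the annotated start in 12 of the 62 (19.4%), against 2.49% of 27025 promoters. The following 4 windows belong to members that varied widely between livers or ran against the other members, and the capitals mark the uninterrupted pyrimidine run from the start base.

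Rplp2: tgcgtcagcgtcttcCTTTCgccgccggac
Rps21: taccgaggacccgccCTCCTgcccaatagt
Rps6: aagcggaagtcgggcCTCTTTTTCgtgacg
Rpl15: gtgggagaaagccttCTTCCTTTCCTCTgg

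They lie at chr7:141447636-141447665 (plus strand), chr2:180257364-180257393 (plus strand), chr4:86857353-86857382 (minus strand) and chr14:18270972-18271001 (minus strand). The next 3 windows had no such run at the annotated start. Rpl19 is shown as the member that passed the test in the embryos, and Rpl10 and Rpl4 because they correlated negatively with the other members there. The capital marks the start base.

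Rpl19: tgaccaaacgccctcActgcgcatgtgcgc
Rpl10: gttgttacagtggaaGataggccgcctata
Rpl4: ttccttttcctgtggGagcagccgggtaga

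They lie at chr11:98026695-98026724 (plus strand), chrX:74270801-74270830 (plus strand) and chr9:64173372-64173401 (plus strand). Among the members with a window, the start run was present in 7 of 32 (21.9%) whose levels in the embryos correlated at 0.8 or above with the other members, and in 5 of 29 (17.2%) of the rest. The letters CCGGAAG, searched on both strands of the 300-base windows, were found in 25 of 62 members (40.3%) and in 9.12% of all promoters. The letters AAGATGGC, searched likewise, were found in 5 of 62 (8.06%) and in 2.88% of all promoters. No member window held the pair overlapping each other. A match describes these letters only.

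Embryo libraries held 7660736 to 45591301 counts and tumour libraries 2955729 to 43141761 reads, the fewest in vehicle 5. Mitochondrial genes took 46.6% of the reads of vehicle 1 and 1.24% to 6.47% elsewhere. Prkaca, counted together with any fusion reads that map to it, lay at 36.3 to 50.5 CPM in the controls and at 52.0 to 114 CPM in the fusion livers, with no overlap. Nothing in the labels says that the embryos or tumours of a group came from separate litters or experiments, so p-values measure the spread between these samples. Hepatocyte markers were high in both tissues, with a mean log2(CPM + 1) of 11.6 to 12.1 in the embryos and 10.2 to 11.9 in the tumours.

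In the embryo livers, ribosomal protein genes took between 6.16% and 10.1% of all counts, and the libraries with high and low shares were spread over both genotypes. The share was 9.73%, 10.1%, 7.85%, 7.12% and 7.05% in controls 1 to 5. It was 6.16%, 7.64%, 10.0% and 9.68% in fusion livers 6 to 9. Controls 1 and 2 and fusion livers 8 and 9 lay at 9.68% or more, the other 5 livers at 7.85% or less, and the groups overlapped fully. The mean was 8.37% ± 1.45 (SD, n = 5) in the controls and 8.38% ± 1.82 (SD, n = 4) in the fusion livers. Counting error was small beside this, the 95% Wilson interval of the shallowest embryo library running from 10.07% to 10.12%. The large subunit held 4.37% ± 0.658 of control and 4.42% ± 0.849 of fusion counts (SD, n = 5 and 4), and the small subunit 4.00% ± 0.792 and 3.96% ± 0.969. In the tumours the share was 4.50%, 4.42%, 6.19%, 7.11% and 10.8% in vehicle tumours 1 to 5 and 7.89%, 7.37%, 7.49%, 7.09% and 7.56% in palbociclib tumours 1 to 5. The vehicle tumours held both the lowest and the highest shares and enclosed all 5 palbociclib tumours. Means were 6.59% ± 2.59 and 7.48% ± 0.290 (SD, n = 5 each).

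**Figure D1:**
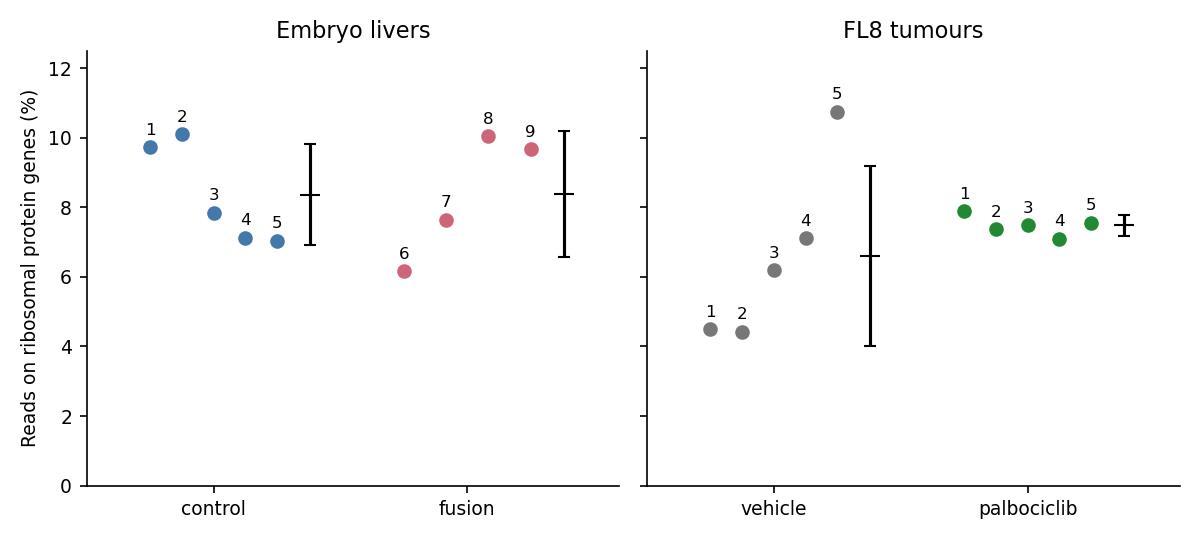
Share of reads on cytosolic ribosomal protein genes (%, vertical axis) in 9 embryo livers (left) and 10 FL8 tumours (right), by group. Points are libraries with their numbers, and bars are group means with SD. Controls 1 and 2 and fusion livers 8 and 9 sit at 9.68% to 10.1%, and the vehicle tumours span 4.42% to 10.8% around the palbociclib tumours at 7.09% to 7.89%.

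Most ribosomal protein mRNAs varied together from liver to liver. For each member, Pearson's r was taken between its log2(CPM + 1) and the mean of the other members over the 9 livers, which share library and depth. The correlation was at least 0.8 for 47 of 81 members (58.0%) and at least 0.9 for 29. Of 8224 other genes that averaged 10 CPM or more, 11.5% reached 0.8 with the members' mean. The median r over the 3240 pairs of members was 0.53, against 0.01 over pairs of other genes, and 24.4% of the member pairs had an r below 0. In fusion livers 8 and 9, 69 and 73 of the 77 members that averaged 10 CPM or more lay above their own mean, while in control 4 only 6 did. Rps19, mutated in Diamond-Blackfan anaemia, followed the others most closely among the genes named here, with Rps27a, a ubiquitin fusion protein (r = 0.99 each). Rps19 lay at 862, 919, 721, 639.7 and 627 CPM in the controls and at 566, 695, 1048 and 882 CPM in the fusion livers.

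**Figure D2:**
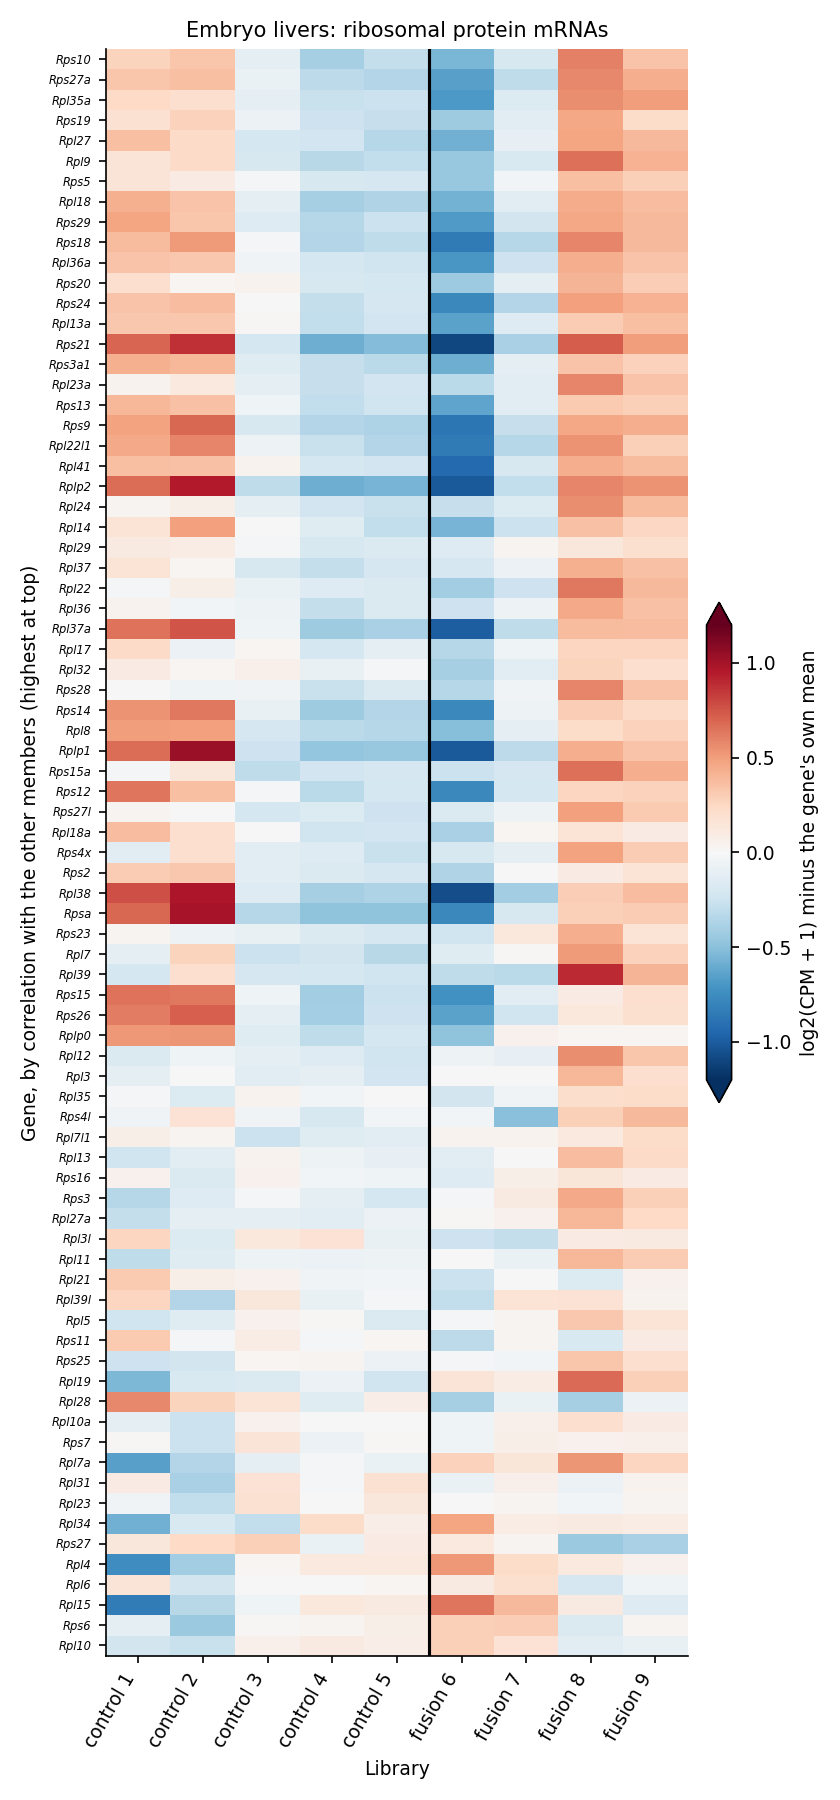
Level of 79 of the 81 members (rows) in the 9 embryo livers (columns), as log2(CPM + 1) minus the gene's own mean, red for above and blue for below, with rows ordered by correlation with the other members. Most rows are red in controls 1 and 2 and fusion livers 8 and 9 and blue in fusion liver 6. Rpl10, at the bottom, shows the opposite. Other low rows do so only in part, such as Rpl4, blue in controls 1 and 2 but not in fusion livers 8 and 9.

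The largest swings were those of Rps21, of the small subunit, the stalk genes Rplp2 and Rplp1, and Rpl38, of the large subunit, all with transcripts of up to 700 bases. Rplp1, a stalk protein that recruits translation factors and the member with the highest level per kilobase, lay at 6527, 8391, 3455, 2974 and 2996 CPM in the controls and 2036, 3289, 5556 and 5197 CPM in the fusion livers. Rplp2, its partner, lay at 4486, 5456, 2289, 1879 and 1914 CPM in the controls and 1403, 2304, 4241 and 4115 CPM in the fusion livers. Both were highest in control 2 and lowest in fusion liver 6, and the groups overlapped. Rpsa, the laminin receptor protein of the small subunit, ranged from 2229 to 7557 CPM, and Rps21 from 465 to 1818 CPM. Rpl38, a large-subunit protein known for selective translation of Hox mRNAs, ranged from 472 to 1942 CPM. The SD of log2(CPM + 1) over the 9 livers was 0.71 for Rps21, 0.69 for Rplp2 and 0.65 for Rplp1 and Rpl38, against a median of 0.30 over the 81 members. Rplp0, the base of the stalk, moved less, from 1769 to 3562 CPM (SD 0.34).

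A smaller group ran against the rest. Of the 81 members, 10 had a negative correlation with the others, and 8 of these averaged 10 CPM or more. Rpl34 and Rps27 were the ones with few counts, and Rpl7a was close to 0 (r = -0.02). Rpl10, an X-linked protein added late in large-subunit assembly, had the lowest (r = -0.86) and lay at 498, 483, 604, 625 and 613 CPM in the controls and 709, 653, 532 and 547 CPM in the fusion livers. It was lowest in controls 1 and 2 and highest in fusion liver 6, where most members were low. Rps6, the substrate of the S6 kinases, had r = -0.68 and lay at 388, 307, 421, 427 and 439 CPM in the controls and 509, 514, 369.9 and 427 CPM in the fusion livers. Rpl15, a protein of the large subunit core, had r = -0.63 and its values ran from 100.3 CPM in control 1 to 282 CPM in fusion liver 6. Rpl6 (r = -0.57, 595 to 796 CPM) and Rpl4 (r = -0.56, 530 to 1274 CPM), both large-subunit proteins, completed the 5 lowest. Rpl4 was lowest in controls 1 and 2 (530 and 666 CPM). In fusion livers 8 and 9 it lay at 968 and 922 CPM, above its mean of 915 CPM, as most members lay above theirs. Rps6 and Rpl15 hold the run at the annotated start, and Rpl10 and Rpl4 do not. The Rpl4 window has a pyrimidine run shortly upstream of that start, which was not counted.

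Fau, a ubiquitin-like fusion gene which yields Rps30 and is outside the symbol rule, followed the members (r = 0.94, 756 to 1665 CPM).

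Transcript length and the levels of other short genes moved with the same livers. Over these 77 members, Spearman's rho of transcript length was -0.40 with the SD over livers and -0.30 with the correlation to the other members, which describes genes that share these 9 libraries. Among 203 other genes with transcripts of up to 700 bases, the median deviation from the gene's own mean was 0.19, 0.13, -0.08, -0.20 and -0.21 in controls 1 to 5 (log2). It was -0.40, -0.04, 0.32 and 0.24 in fusion livers 6 to 9. These short genes were therefore high in the same 4 livers and lowest in fusion liver 6. Among 27 members of that length the medians were 0.36, 0.34, -0.08, -0.28 and -0.26 in the controls and -0.68, -0.19, 0.46 and 0.34 in the fusion livers. Other genes over 4000 bases stayed between -0.06 and 0.09. The mean log2(CPM + 1) of a haematopoietic and erythroid list was 7.55, 7.61, 7.20, 7.41 and 7.44 in the controls and 7.44, 7.42, 7.61 and 7.50 in the fusion livers, also highest in those 4. In that list 1 of 20 genes had an r of at least 0.8 with the members' mean (median 0.40). The mean of the hepatocyte list was lowest in the same 4 livers. It was 11.58, 11.60, 12.07, 12.05 and 12.05 in the controls and 12.12, 11.94, 11.76 and 11.90 in the fusion livers. The part of transcript length, blood cell content or hepatocyte content in the shared pattern was not tested.

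**Figure D3:**
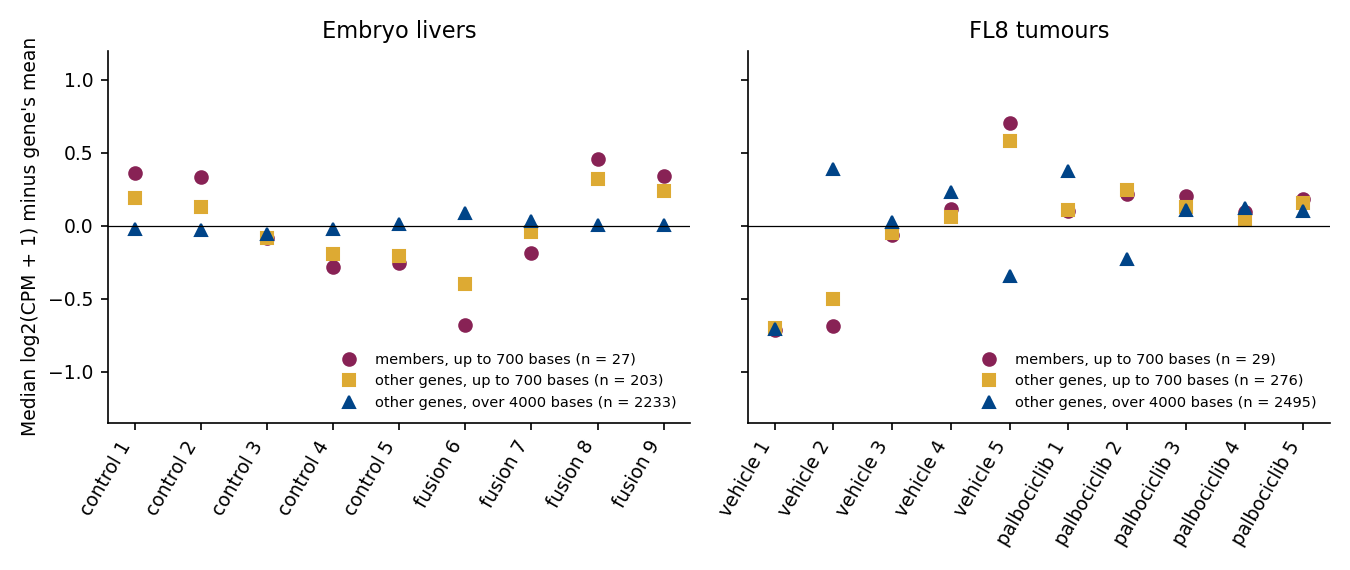
Median deviation from the gene's own mean, as log2(CPM + 1) (vertical axis), in each library (horizontal axis) for members with transcripts of up to 700 bases (circles), other genes of that length (squares) and other genes over 4000 bases (triangles), in embryo livers (left) and FL8 tumours (right). In the livers circles and squares lie on the same side of 0 in every library, and circles are the lower in fusion liver 6, at -0.68 against -0.40.

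The 10 genes outside the set whose levels followed the members' mean most closely over the 9 livers were Hint1, Pdcd2, Chmp4b, Myeov2, Polr2i, Chchd7, Tomm6, Gtf3a, Snrpb2 and Dcaf13, with r between 0.98 and 0.99. Pdcd2 is known to help assemble the small-subunit protein Rps2, Gtf3a is the factor that starts transcription of 5S ribosomal RNA, and Dcaf13 is a nucleolar protein of rRNA processing. Hint1 lay at 323 CPM in fusion liver 6 and 533 CPM in fusion liver 8. None of the 10 passed the test between genotypes, with adjusted p of 0.62 to 0.87 (edgeR).

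Between genotypes, few ribosomal protein genes differed. Of 80 members tested with edgeR's quasi-likelihood test, 1 passed an adjusted p under 0.05 over all genes, and it was higher in the fusion livers, against 12.8% of the 13316 genes tested. An unadjusted p under 0.05 was reached by 7 members (8.75%), 6 higher and 1 lower, against 29.3% of all genes and 13.9% higher. The median log2 fold change of the members was 0.08, with 48 above 0 and 32 below, and that of all genes was -0.01. Leaving out fusion liver 6 gave 67 members above 0 and 17 with an unadjusted p under 0.05, against 25.8% of all genes. Leaving out fusion liver 8 gave 38 and 3, against 24.8%. Of all genes 48.2% were above 0 in each of these fits. With limma-voom and quality weights 71 of 80 were above 0, with a median of 0.16, against 49.2% of all genes and a median of -0.007. In the fit of all livers the median was 0.11 for the 47 large-subunit and 0.06 for the 33 small-subunit members.

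The member that passed was Rpl19, a large-subunit protein often used as a reference gene. It lay at 384, 493, 497, 532 and 474 CPM in the controls and 624, 597, 895 and 685 CPM in the fusion livers, so every fusion liver was above every control. Its log2 fold change was 0.56 (SE 0.16, adjusted p = 0.0407, edgeR). The call was lost when any single liver other than fusion liver 6 was left out (adjusted p 0.0528 to 0.112), with a sex covariate (0.0563), with a haematopoietic covariate (0.0540) and with counts scaled to the members' sum (0.331). Over all genes these 3 fits called 9.64%, 14.7% and 2.87%, a fit without a filter 13% and limma-voom 17.7%. Rpl19 shares its strand with an overlapping annotated gene, Gm11629, whose reads cannot be told apart from its own here.

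The groups did not overlap for 4 of the 80 members, all higher in the fusion livers, against 8.37% of genes higher, 8.15% lower and 16.5% in either direction. Besides Rpl19 these included Rpl7a and Rpl27a, named after their values were seen. Rpl7a, a large-subunit protein, lay at 545, 673, 799, 853 and 813 CPM in the controls and 1038, 951, 1238 and 1029 CPM in the fusion livers (log2 fold change 0.53, SE 0.16, adjusted p = 0.0529, edgeR). DESeq2 called 5 members, among them Rpl19, Rpl7a, Rpl27a and Rps3, where it called 18.4% of all genes. The smallest p among members with lower values belonged to Rpl28, a large-subunit protein, at 1868, 1501, 1403, 1131 and 1319.7 CPM in the controls and 949, 1179, 948 and 1188 CPM in the fusion livers (log2 fold change -0.44, SE 0.17, adjusted p = 0.116, edgeR).

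The remaining members gave no call, and their log2 fold changes ran from -0.55 for Rps27 to 0.52 for Rpl34, both with few counts. The stalk proteins Rplp0, Rplp1 and Rplp2 had -0.20, -0.28 and -0.09, with SEs of 0.23 to 0.40, so their swings between livers were larger than the difference between genotypes. Rpsa had -0.25 (SE 0.36), Rpl38 had -0.38 (SE 0.37) and Rps6 had 0.20 (SE 0.15). The proteins that bind 5S RNA and Mdm2 outside the ribosome, Rpl5 and Rpl11, had log2 fold changes of 0.22 (SE 0.13) and 0.30 (SE 0.14). Rpl17 had 0.07 (SE 0.17), and followed the other members (r = 0.90). The X-linked Rps4x, Rpl36a and Rpl39 had 0.24, -0.03 and 0.39, with adjusted p of 0.318 to 0.954 (edgeR). Rpl3, which lies at the peptidyl transferase centre, had 0.27 and Rpl7 had 0.30. Xist, the RNA of the inactive X, was at 168 to 473 CPM in controls 1 and 2 and fusion livers 6 to 8 and at 0.547 CPM or less in the others.

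Paralogs of members differed widely in level. Rpl22 lay at 330.1 to 683 CPM and its paralog Rpl22l1 at 131 to 357 CPM, with SDs of 0.33 and 0.50. Rps27l, the p53-responsive paralog of Rps27, lay at 110 to 183 CPM, whereas Rps27 itself had 3 to 39 counts per liver, or 0.23 to 1.03 CPM. Rpl3l, a form of striated muscle, had 2 to 15 counts per liver and was not tested, and Rpl39l, a form of the testis, had 2 to 17. Rpl34 had 9 to 122 counts per liver. Rps4l, annotated by GENCODE as a transcribed pseudogene, lay at 53.3 to 99.6 CPM. The lowest of these counts are at or near the floor of 3 counts in some livers, and no difference between genotypes was detectable with so few counts. Rps27 and Rpl34 averaged 199 and 445 CPM in the tumours. Whether read assignment kept their liver counts low was not tested, so the low values cannot be read as absence of these mRNAs.

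Genes that make or regulate ribosomes, from lists drawn up with earlier results of these data known, are given beside them with each list's median log2 fold change, which was -0.01 over all genes tested. Of 78 ribosome assembly factors tested, 4 were called higher and 0 lower in the fusion livers (median 0.08). Examples were Ddx10, a helicase of small-subunit assembly (16.3 ± 0.894 to 21.1 ± 0.803 CPM, log2 fold change 0.38, adjusted p = 0.0285, edgeR) and Rrs1, a regulator of large-subunit assembly (30.2 ± 2.90 to 39.8 ± 3.34 CPM, 0.40, adjusted p = 0.0360), with SD and n = 5 and 4. Of 15 RNA polymerase I genes 0 were called (median -0.01), and of 77 mitochondrial ribosomal proteins 14 were called higher and 0 lower, with a median log2 fold change of 0.24. Mrps31 rose from 20.8 ± 2.25 to 44.2 ± 6.58 CPM (log2 fold change 1.09, SE 0.13, adjusted p = 0.000562, edgeR). Of 37 translation factors 4 were called higher and 0 lower (median 0.22). Eif4e, the cap-binding protein, rose from 50.9 ± 2.47 to 70.1 ± 4.31 CPM (0.46, adjusted p = 0.0110, edgeR). Of 28 genes of mTOR and S6 kinase signalling 3 were called higher and 3 lower (median 0.11). Eif4ebp1, the repressor of Eif4e that mTOR phosphorylates, fell from 157 ± 17.3 to 88.6 ± 17.1 CPM (log2 fold change -0.82, SE 0.15, adjusted p = 0.00547, edgeR). Over all genes 5.99% were called higher and 6.81% lower. Cell type markers differed in the same comparison. Of 11 hepatocyte markers 3 were called higher (Hpx, Cps1 and Afp) and 1 lower, and only 4 of the 11 lay above 0 (median -0.08). Their summed levels were 133049 to 173911 CPM in the controls and 164728 to 197062 CPM in the fusion livers. Within these sums Afp alone averaged 42296 CPM in the controls and 76590 CPM in the fusion livers, so the sums do not stand for most of the markers. Of 6 fibroblast markers 0 were called higher and 2 lower (Col1a1 with a log2 fold change of -0.80 and Col1a2 with -0.57), with sums of 224 to 413 CPM and 188 to 297 CPM. Of 20 haematopoietic and 5 endothelial markers 0 were called (edgeR). Their part in these lists was not tested.

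In the tumours, the members were coordinated too. The correlation with the other members was at least 0.8 for 60 of 83 members (72.3%), against 5.97% of 8340 other genes. Among the 60 are Rps3a2 and Rps3a3 (r = 0.90 and 0.92), which match the symbol rule but which GENCODE annotates as processed pseudogenes. The median pairwise r was 0.74, against 0.37 for other genes. Vehicle tumours 1 and 2 were low and vehicle 5 was high, with 7, 0 and 80 of 82 members above their own mean, where 9.44%, 70.3% and 44.1% of all genes were. In vehicle 1 the members were thus low as most genes were. With mitochondrial genes left out of the total, vehicle 1 had a member share of 8.43%, above the 7.29% to 8.15% of the palbociclib tumours, while vehicle 2 stayed at 4.48%. Vehicle 5 was the shallowest library and vehicle 1 the one rich in mitochondrial reads. The 276 other genes of up to 700 bases had medians of -0.70 in vehicle 1, -0.50 in vehicle 2 and 0.58 in vehicle 5, and 29 members of that length had -0.71, -0.69 and 0.70. Genes over 4000 bases had -0.70, 0.39 and -0.34 there, so vehicle 1 was low at every length. The part of length in these values was not tested.

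**Figure D4:**
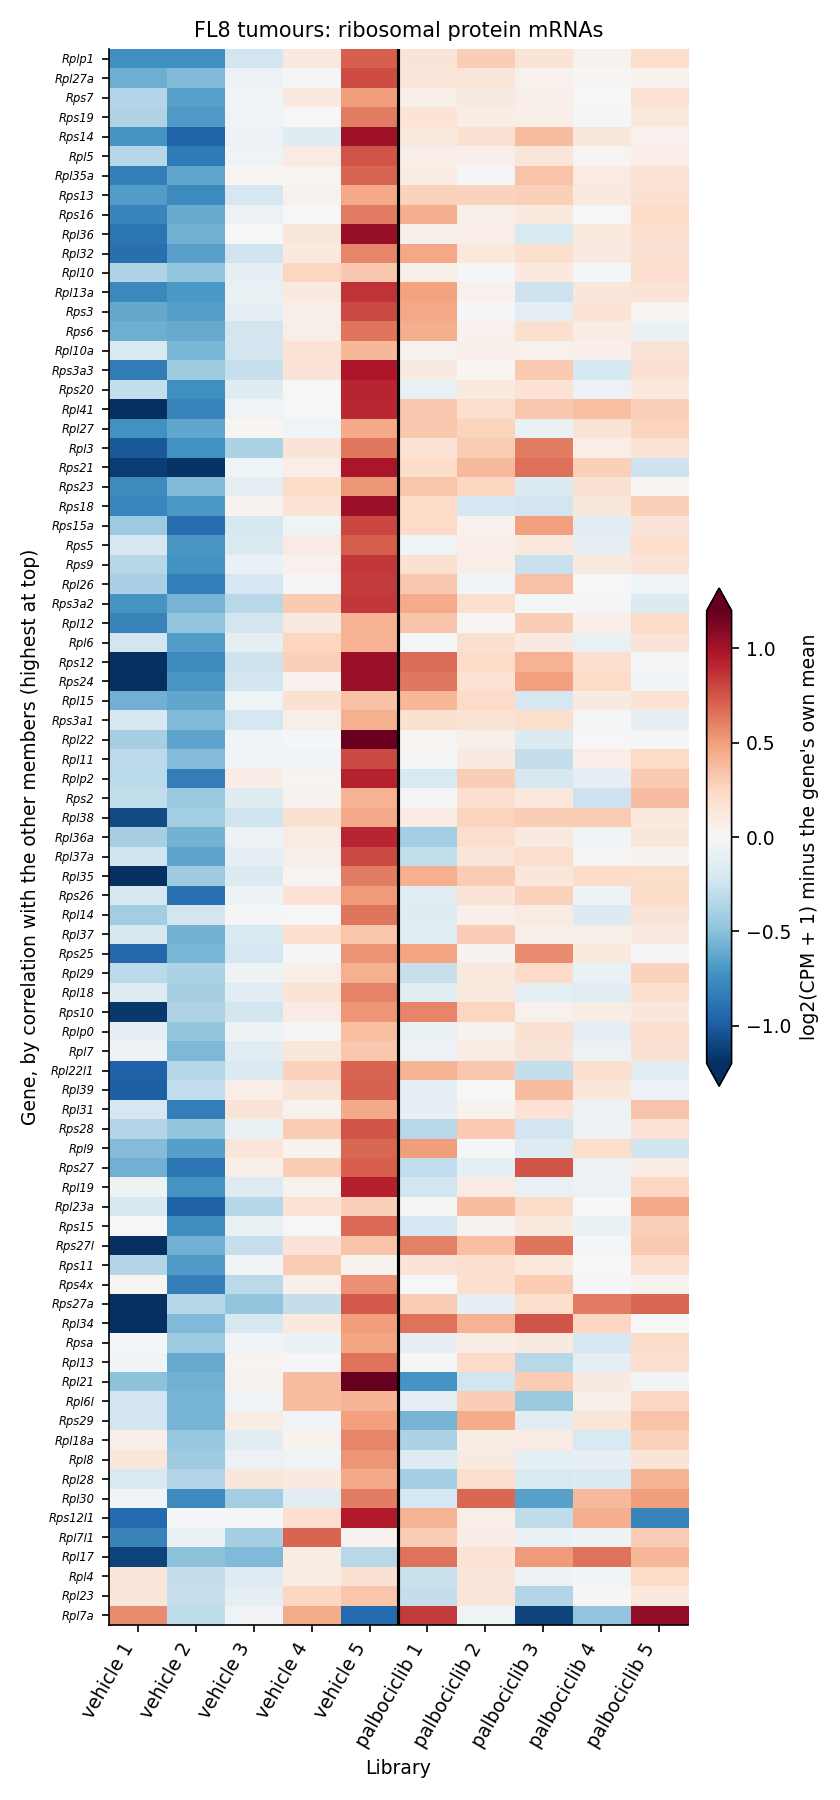
Level of 81 of the 83 members (rows) in the 10 FL8 tumours (columns), as log2(CPM + 1) minus the gene's own mean, red for above and blue for below, with rows ordered by correlation with the other members. Vehicle 5 is red and vehicle 2 blue in nearly all rows, and Rpl7a at the bottom is the exception with a negative correlation.

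The member that stood apart most was Rpl7a, which was low in vehicle 5, where the others were high. It lay at 189, 102, 123, 173 and 66 CPM in the vehicle and 227, 122, 58.3, 91 and 265 CPM in the palbociclib tumours (r = -0.25). Rpl23 (r = 0.40, 166 to 267 CPM), Rpl4 (r = 0.42, 675 to 967 CPM), Rpl17 (r = 0.51) and Rpl7l1, an Rpl7 paralog (r = 0.55, 54.9 to 157 CPM), were the next lowest. Rpl10 and Rps6, which ran against the members in the livers, followed them in the tumours (r = 0.93 and 0.92). The largest swings were those of Rps12, from 552 to 3931 CPM, Rpl34, from 102 to 675 CPM, and Rps24, from 846 to 5527 CPM, each lowest in vehicle 1. Fau lay at 394 to 1360 CPM.

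Between treatments, no member passed an adjusted p under 0.05 in limma, and neither did any of the 12829 genes tested (0%). An unadjusted p under 0.05 was reached by 3 of 83 members (3.61%), all higher with palbociclib, against 4.57% of all genes and 3.73% higher. The call counts are 0 with edgeR and 1 with DESeq2 on the recovered reads, and 1 with limma quality weights. The median log2 fold change of members was 0.17 and that of all genes 0.14 on the CPM scale, and after TMM scaling 0.02 and 0.01. On recovered reads they were -0.06 and -0.05 with edgeR, which also uses TMM, and -0.07 and -0.07 with DESeq2, so the sign of both medians differed between fits. The members above 0 numbered 71 of 83 on the CPM scale, where 68.8% of all genes were above 0, 48 with TMM, 31 with edgeR and 30 with DESeq2. With TMM, edgeR and DESeq2, 51.0%, 44.4% and 42.6% of all genes were above 0. Leaving out vehicle 2 gave 48 members above 0 and a median of 0.05, and leaving out vehicle 5 gave 81 and 0.35, with medians of all genes of 0.21 and 0.11. Markers of blood cells also differed between tumours. Of 16 haematopoietic and erythroid genes tested 0 were called (limma), with a median log2 fold change of -1.08 and summed levels of 1380 to 96856 CPM with vehicle and 1822 to 8569 CPM with palbociclib. Their part in the members' values was not tested.

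Rpl17, a protein at the peptide exit tunnel of the large subunit, was the member with the clearest separation. It lay at 564, 864, 845, 1297 and 965 CPM in vehicle tumours 1 to 5 and at 1916, 1369.9, 1738, 1917 and 1606 CPM in palbociclib tumours 1 to 5. All 5 palbociclib tumours were above all 5 vehicle tumours, which held for this member alone, against 0.834% of all genes higher, 0.101% lower and 0.935% in either direction. Means were 907 ± 264 and 1709 ± 231 CPM (SD, n = 5 each). The log2 fold change was 0.95 (SE 0.28, unadjusted p = 0.00362, adjusted p = 0.953, limma). DESeq2 on the recovered reads gave 0.78 with an adjusted p of 0.0216, and limma with quality weights gave 0.97 with 0.0171, while edgeR gave an adjusted p of 0.904. Those tools called 8, 58 and 0 genes in all (0.0468%, 0.452% and 0%).

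Reads of Rpl17 may be divided among its pseudogenes, and how the authors treated reads that match several genes is not given in the sources used here. The 5 rows named as Rpl17 pseudogenes together held 360.3 to 1097 CPM, or 36.5% of the sum with Rpl17 on average. Added to Rpl17, they gave 924, 1581, 1541, 1724 and 2009.99 CPM in the vehicle tumours and 3013, 2246, 2813, 2383 and 2355 CPM in the palbociclib tumours, and the groups still did not overlap. The log2 fold change was then 0.75 (SE 0.30, unadjusted p = 0.0210, adjusted p = 0.953, limma). Without vehicle 1 and vehicle 5 it was 0.79 (SE 0.21, unadjusted p = 0.00152, adjusted p = 0.346, limma). Rpl17 lies on chromosome 18 (74998558 to 75003381, plus strand, mm10), and GENCODE M21 lists no gene overlapping it other than small RNAs.

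**Figure D5:**
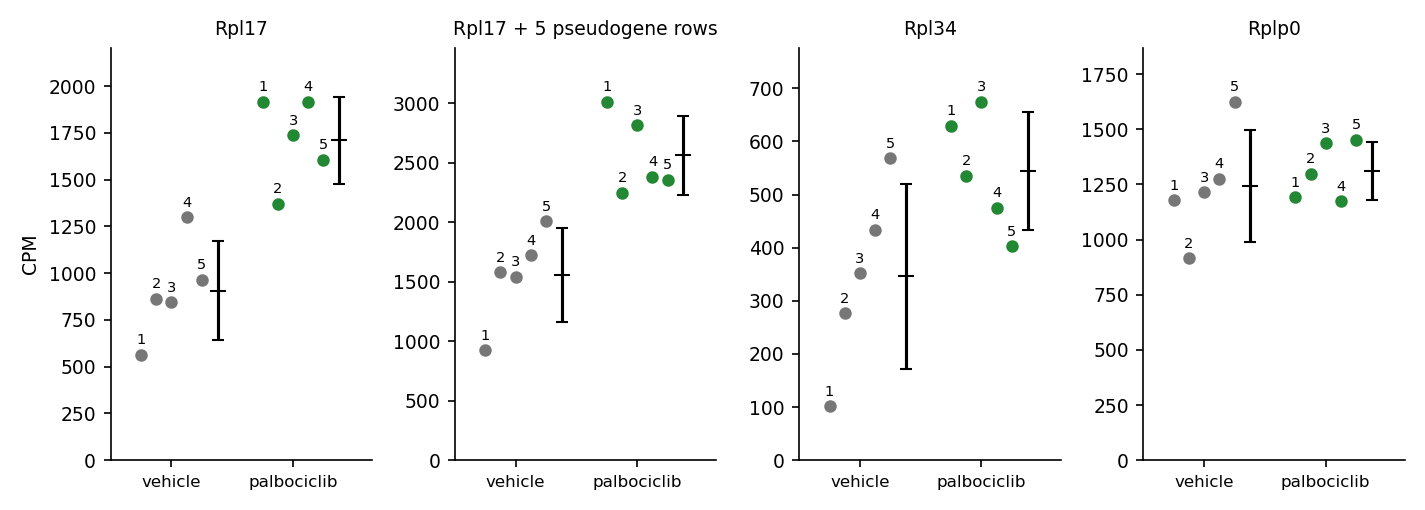
CPM (vertical axes, from 0) of Rpl17, of Rpl17 with its 5 pseudogene rows, of Rpl34 and of Rplp0 in the 5 vehicle and 5 palbociclib tumours. Points are tumours with their numbers, and bars are means with SD. Rpl17 separates the groups at 1297 against 1369.9 CPM, and with the pseudogene rows at 2009.99 against 2246 CPM, whereas Rpl34 and Rplp0 overlap.

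Rps27l and Rpl34 were the other members with an unadjusted p under 0.05. Rps27l lay at 236, 461, 569.6, 768 and 874 CPM with vehicle and 1047, 886, 1081, 685 and 859 CPM with palbociclib (log2 fold change 0.76, SE 0.33, adjusted p = 0.953, limma). Rpl34 had 0.83 (SE 0.37, adjusted p = 0.953, limma), and 0.57 (SE 0.32) with its pseudogene rows, which held 60.8% of the sum. Both overlapped between the groups and were lowest in vehicle 1, and without it Rps27l had 0.47 (SE 0.22) and Rpl34 0.44 (SE 0.23). Among the members with lower values and the smallest p were Rpl21 and Rpl23, with log2 fold changes of -0.22 and -0.14 and adjusted p of 0.96 for both (limma). Without vehicle 2 the number of members with an unadjusted p under 0.05 was 1, against 6.5% of all genes, and without vehicle 5 it was 19, against 7.17%. Without vehicle 1 and vehicle 5 it was 21, against 8.56%. That fit had 80 of 83 members above 0, where 44.2% of all genes were, and none called.

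Several named members had similar means in both treatments. Rplp0 was 1242 ± 254 and 1310.2 ± 131 CPM, Rpsa 2462 ± 577 and 2497 ± 295 CPM, and Rps19 1586 ± 561 and 1720.3 ± 77.3 CPM (SD, n = 5 each). Rpl5 was 1007 ± 420.3 and 1048 ± 29.96 CPM, Rpl11 467 ± 184 and 461 ± 59.8 CPM, and Rps6 1009 ± 392 and 1167 ± 162 CPM. In each of these the vehicle SD exceeded the palbociclib SD. The spread among vehicle tumours was larger than any of these differences. On the CPM scale the stalk proteins Rplp1 and Rplp2 had log2 fold changes of 0.35 (SE 0.33) and 0.04 (SE 0.30). The X-linked Rps4x, Rpl10, Rpl36a and Rpl39 had 0.20, 0.14, 0.01 and 0.13, and the paralogs Rpl22 and Rpl22l1 had -0.04 and 0.21. Larger values were those of Rpl41, Rpl3 and Rpl38, with 0.60 (SE 0.41), 0.53 (SE 0.32) and 0.43 (SE 0.27). Over all 83 members the values ran from -0.22 to 0.95. Of the ribosome assembly, RNA polymerase I, mitochondrial ribosomal protein, translation factor and mTOR lists, 0 genes were called in the tumours, with median log2 fold changes of 0.14, 0.10, 0.26, 0.14 and 0.08 against 0.14 over all genes.

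Levels of many members differed between the tissues. Over the 77 members in both tables, Spearman's rho of mean CPM was 0.36. The mean was more than 2-fold lower in the tumours for 23 of them and more than 2-fold higher for 12. The tables were made and scaled separately, so the levels are set side by side without a test. Rpl34 was at 1.61 CPM in the livers and 445 CPM in the tumours, and Rps27 at 0.692 and 199 CPM. Rpl24, at 438 to 786 CPM in the livers, had at most 42 reads in any tumour, 1.25 CPM or less. Rpl24 shares its strand with an overlapping annotated gene, Gm28037. How reads in such an overlap were assigned is not given in the sources used here, so silence in the tumours cannot be read from these counts. Rpl21 (1106 and 74.7 CPM), Rps29 (1429 and 114 CPM) and Rpl23a (847 and 72.3 CPM) were lower in the tumours. Per kilobase, Rplp1, Rplp2 and Rps12 were highest in the livers (9000.3, 6950.5 and 4867 CPM per kb), and Rpl41, Rplp1 and Rpl13a in the tumours (6554, 4694 and 4552 CPM per kb). The lowest per kilobase in the tumours were Rps12l1 and Rpl6l, which GENCODE annotates as processed pseudogenes, and Rpl7l1. Reads of near-identical copies make such levels uncertain, since 45 of the 83 tumour members had pseudogene rows of their own, 117 rows in all, against 4 rows in the embryo table.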

How the data were processed

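RNA-seq of 9 embryo livers and 10 tumours was used, grouped by the genotype and treatment labels. The authors deposited counts per gene for the embryos and CPM per Ensembl gene for the tumours, per the file headers. The submitters' processing notes name STAR 2.5.1b and DESeq2 for the embryos, cutadapt 2.10, HISAT2, featureCounts, DESeq2 and R 4.1.2 for the tumours, and mm10 for both. Strand and multi-mapping settings are not given in the sources used here. Another 9 columns of the embryo table, a rescaling of the counts, were not used. All deposited CPM values (100%) were whole multiples of 1 read within 0.01, so reads were recovered.

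Embryo counts were tested with edgeR 4.0.16 (quasi-likelihood, TMM, filterByExpr) under R 4.3.3. Tumours were tested with limma 3.58.1 (trend) on log2(CPM + 1), a scale that compresses changes at low levels, where the average was 1 CPM or more. P-values were adjusted over all genes by the Benjamini-Hochberg method and called under 0.05. Embryo levels are CPM after TMM scaling, and the SE of an embryo fold change is its size over the root of the F statistic. DESeq2 1.42.0 and the other alternatives are given in the closing section. Both fits were run on simulated data with the same dispersion for every gene and no differences in composition between libraries. Those runs do not show how the fits perform on libraries as uneven as these.

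Members and lists were chosen with earlier results of these data known. Named were members given in the design, those called or with the 3 smallest p in each direction, the 3 highest and 3 lowest per kilobase, the 5 least correlated, the 10 most similar other genes and up to 3 called genes per list. Symbols, coordinates and transcript lengths came from GENCODE M21. A floor of 3 counts was 0.0658 to 0.392 CPM in embryos and 0.0695 to 1.01 CPM in tumours, and intervals cover counting error only. All libraries differed by more than counting noise (chi-square per degree of freedom of 12.5 or more within groups). Same-numbered vehicle and palbociclib tumours did not deviate together, so numbers were not treated as pairs. Rpl26 and Rpl30 in the embryos, and promoter sequences of 25 members, were not analysed here. Results for some genes are not reported here.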

Additional observations from a re-analysis of the deposited data

Results flagged for a closer look

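In 122 groups of 4 or 5 libraries (the member share and the named members' levels), 6 libraries lay far from the rest of their group by Dixon's test, where chance gives about 1 in 20 groups, or 6.1. Control 2 was high among the controls for Rps4x at 1450.2 CPM, against 1042 to 1149 CPM in the others, and for Rpl39 at 351 CPM, against 258 to 266 CPM. Fusion liver 6 was low for Rplp0 at 1769 CPM, against 2514 to 2557 CPM in the other fusion livers. Vehicle 5, the shallowest library, was high for Rpl22 at 397 CPM, against 112 to 172 CPM, and for Rpl11 at 783 CPM, against 313 to 441 CPM. Palbociclib 3 was high for Rps27 at 317 CPM, against 153 to 199.8 CPM.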

How the results depend on the processing

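The count of members called in the embryos was 1, and it was 1 with other size factors, with limma-voom and with a sex or haematopoietic covariate, although the covariate fits called Rpl7a in place of Rpl19. It was 0 with counts scaled to the members' sum, 5 with DESeq2 and 2 without a filter (Rpl19 and Rpl7a), and 0 to 1 when each liver was left out, where only the fit without fusion liver 6 kept Rpl19. The median log2 fold change of members was then -0.01 to 0.19, lowest without fusion liver 8 and highest without fusion liver 6.

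The count of members called in the tumours was 0. It was 1 with DESeq2 on recovered reads and 1 with limma quality weights, Rpl17 in both, and 0 with every other setting and every tumour left out. With the replicate block it was 0, Rpl17 keeping its log2 fold change of 0.95 (adjusted p = 0.999, limma). Correlations of same-numbered tumours were -0.32 to 0.00, and 0 of 5 vehicle tumours matched best with its own number. Over single tumours left out, the log2 fold change of Rpl17 was 0.79 to 1.09, and the members with an unadjusted p under 0.05 were 1 to 19. Rpl23 turned to 0.023 with quality weights. Left-out tumours gave -0.40 to 0.051 for Rpl21, highest without vehicle 5. The fit without vehicle 1 and vehicle 5 and the pseudogene sums were chosen after seeing the data.

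The difference in member share between fusion and control livers was 0.01 percentage points, -0.54 to 0.75 with 1 liver left out (lowest without fusion liver 8, highest without fusion liver 6) and -0.003 without albumin and haemoglobin. Palbociclib minus vehicle was 0.88 points, 0.34 to 1.92 with 1 tumour left out (lowest without vehicle 2, highest without vehicle 5) and 0.28 without mitochondrial genes, each moving by less than the SD within groups. Few counts limit what can be said of Rps27, Rpl34, Rpl3l and Rpl39l in the livers and Rpl24, Rpl3l, Rpl39l and Rps4l in the tumours. Why their counts were low was not tested.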
